A study of Homo sapiens with 6 samples.

Results

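The genes described here are those whose symbol in the authors' deposited table begins with LINC and a digit, with LINC01021 left out by name. They number 44 of the 6831 genes of that table. Since the table holds genes with an adjusted p below 0.05 and no others, the 44 genes were chosen by their symbol and, through the table, selected on the adjusted p of DEG-35 against DMSO. Their fold changes are therefore given as a description, without a test. For a LINC-named gene outside the table, it is not known whether it was tested.

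The RNA came from MOLM-13, a human acute myeloid leukaemia line whose genotype is labelled WT, cultured for 24 h with DEG-35 at 50 nM or with the solvent DMSO. DEG-35 is a degrader of 2 proteins, the zinc-finger transcription factor IKZF2 and the kinase CK1α. Each group had 3 RNA-seq libraries of 1 cell line, and the labels do not say whether they came from separate cultures, so the spread behind the p-values may be technical. The question was which genes respond to the compound. The values come from the authors' deposited table, which gives per gene an adjusted p, its unadjusted p and a fold change on the log2 scale, with no counts, levels or values per library. The depth of the libraries is thus unknown, the identity of the line could not be checked against marker levels, and no member can be shown sample by sample. Which group is the numerator is not stated. The fold changes were read as DEG-35 over DMSO, and each direction below would turn round under the other order. The error beside each fold change is the standard error (SE) implied by the fold change and its p-value. In bulk RNA, fewer cells of a type and less RNA per cell cannot be told apart.

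LINC symbols are placeholders for long intergenic noncoding RNAs, transcripts that lie between coding genes and encode no known protein when named. Many are spliced, polyadenylated and present at low levels, and some act on transcription at their own locus, as decoys for RNA-binding proteins or as hosts of small RNAs. A symbol of this kind is often replaced once a function or a small encoded protein is found. All 44 symbols were found in the RefSeq gene table of GRCh38.p14, 29 as current symbols and 15 as synonyms. RefSeq now annotates 39 as long noncoding RNAs, 4 as protein-coding genes and 1 as a transcribed pseudogene. They lie on 20 chromosomes, with 5 on chromosome 7 and 4 on chromosome X.

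Promoter windows, 250 bases before to 50 bases after the annotated start, are shown for the member with the largest rise among those with an implied SE of at most 0.5, LINC00996, and for the member with the largest fall, LINC00263. The sequences are from RefSeq on GRCh38.p14. That of LINC00996 spans chr7:150433404-150433703 on the plus strand and that of LINC00263 spans chr10:100373326-100373625 on the plus strand. Capitals mark CCAAT on either strand and, in LINC00263, also 1 half-site of the p53 response element.
LINC00996: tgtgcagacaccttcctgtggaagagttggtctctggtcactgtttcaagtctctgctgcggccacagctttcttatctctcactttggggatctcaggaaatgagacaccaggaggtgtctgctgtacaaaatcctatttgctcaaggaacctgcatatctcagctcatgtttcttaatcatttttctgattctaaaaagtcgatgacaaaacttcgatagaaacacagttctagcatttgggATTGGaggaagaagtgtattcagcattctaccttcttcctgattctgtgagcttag
LINC00263: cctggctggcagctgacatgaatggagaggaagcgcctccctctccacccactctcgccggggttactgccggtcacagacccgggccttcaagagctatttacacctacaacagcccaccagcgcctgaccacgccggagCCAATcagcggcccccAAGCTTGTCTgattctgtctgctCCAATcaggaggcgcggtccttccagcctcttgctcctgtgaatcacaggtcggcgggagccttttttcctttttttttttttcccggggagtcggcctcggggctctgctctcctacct
The motifs below were searched on both strands in 1 window per gene, for the 29 members and all 27305 genes that had a window. The source held 35116 windows, of which the first of each gene was kept and the others were not searched. All windows below means those kept. CCAAT was present in 11 of 29 member windows (37.9%), against 35.7% of all windows. TTTGAA, a form of the cell cycle homology region, was found in 2 of 29 (6.90%), against 15.4% of all windows, and TTCGAA in none of 29, against 1.45%. TATAAA was found in 2 of 29, against 3264 of the 27305 windows. The p53 half-site was found in 2 of 29 (6.90%, LINC00263 and LINC01176), against 6.54% of all windows, and a pair of half-sites at most 13 bases apart in none of 29, against 0.0293%. In these letters the member windows held CCAAT and the p53 half-site at shares close to those of all genes. TTTGAA and TATAAA had lower shares among the members, on 2 windows each. These differences were not tested.

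Most of the listed LINC-named genes were higher with DEG-35. By the authors' deposited table, 37 of the 44 were higher and 7 lower. Of the 15064 genes that the adjusted p-values imply were tested, 45.3% passed, 21.4% as higher and 24.0% as lower. Tested here and below means counted in the adjustment. Genes left out before that step, if any, are not in the 15064. How many LINC-named genes were tested is not known, so a share of members that passed cannot be formed. Higher genes made up 84.1% of the members, against 46.9% of the other 6787 listed genes. The median log2 fold change was 0.85 for the members and -0.19 for the other listed genes. A change of 2-fold or more was listed for 16 members, and all 16 were higher. The whole table held 637 higher and 614 lower genes of that size. The member just inside the threshold was LINC00899, at an adjusted p of 0.0496 by the authors' deposited table, after LINC01237 at 0.0485. The values of genes just outside it are not in the table.

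**Figure D1:**
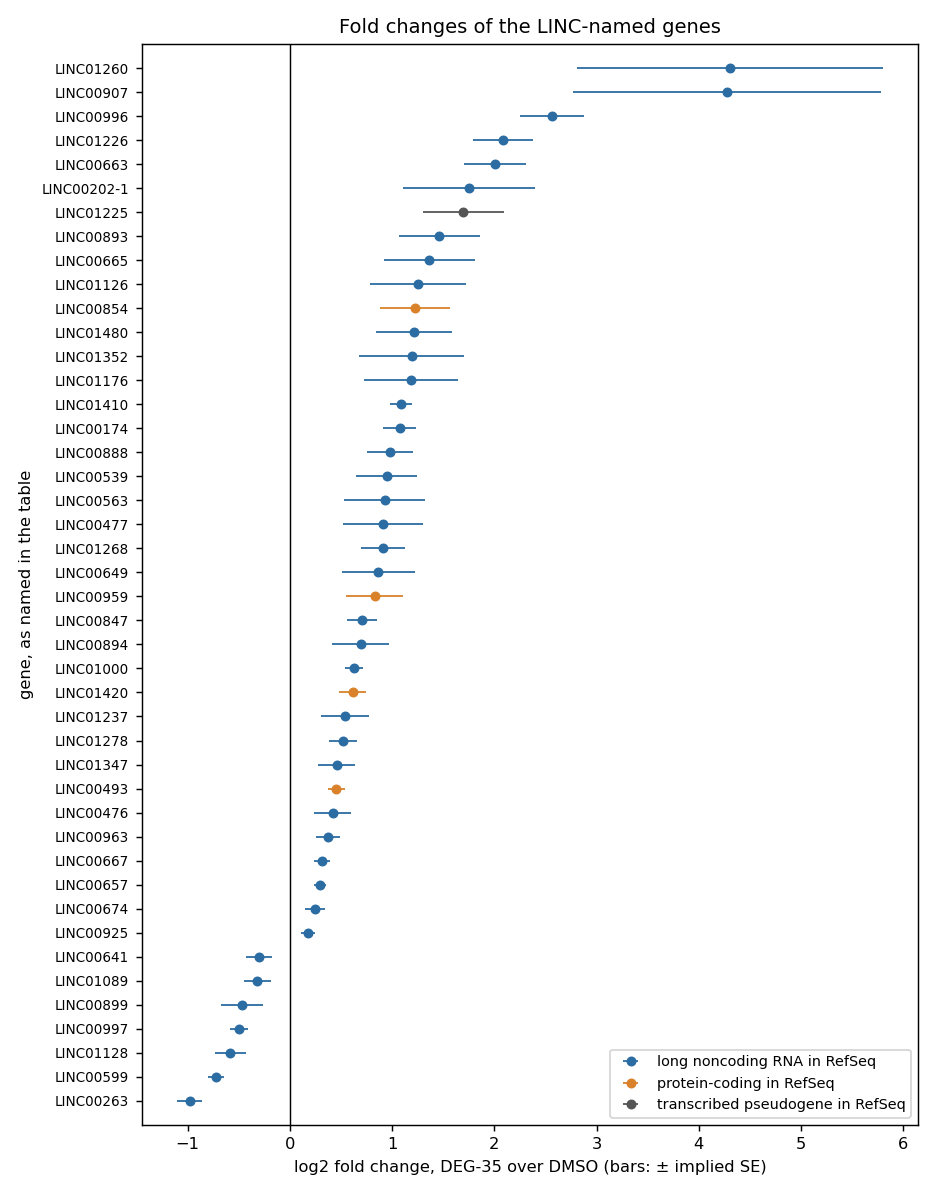
Log2 fold change of each of the 44 LINC-named genes, DEG-35 over DMSO, with bars of ± the implied SE and colours for the present RefSeq annotation. The 37 higher genes reach from 0.18 to 4.31 and the 7 lower ones from -0.30 to -0.98, and the bars widen toward the top.

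Precision differed among the members and moved with direction. The implied SE ran from 0.0610 to 1.51, with a median of 0.219, against a median of 0.0891 over the whole table. Of the 44 genes 24 (54.5%) had an implied SE above 0.2, against 12.8% of all listed genes. Among these 24 genes 23 were higher (95.8%), against 70.1% of all listed genes of that precision. Among the 20 members with an implied SE of at most 0.2, 14 were higher (70.0%), against 43.7% of all listed genes of that precision, and their median log2 fold change was 0.34, against -0.22. A gene entered the table with a fold change of at least 2.28 times its implied SE, so imprecise members could be listed with large fold changes and no others. Levels, which would show how far precision follows from low counts, are not in the table, and their part in the direction was not tested.

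**Figure D2:**
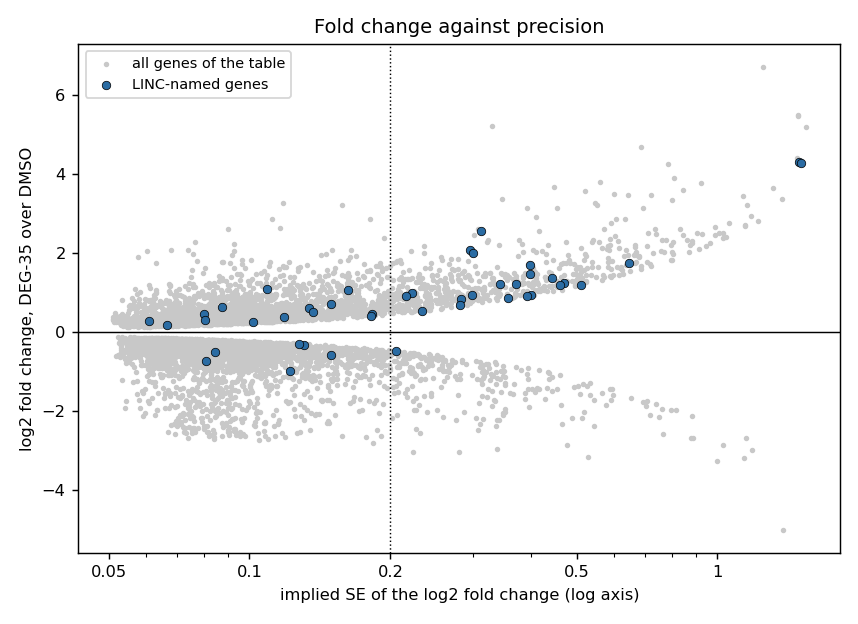
Log2 fold change, DEG-35 over DMSO, against its implied SE on a log axis for all listed genes (grey) and the 44 LINC-named genes (blue), with a dotted line at an implied SE of 0.2. To the right of the line 23 of 24 LINC-named genes lie above 0, and to the left 14 of 20 do.

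Higher genes were also the majority among LOC-named and antisense genes. By the authors' deposited table, 89 of 124 LOC-named genes were higher (71.8%, median log2 fold change 0.51), and of 130 antisense genes with a symbol ending in -AS and a number 79 were higher (60.8%, median 0.50). Of 17 host genes of small RNAs 9 were higher and 8 lower, and of 48 MIR-named genes 22 were higher and 26 lower. The remaining 6465 symbols, mostly coding genes, were higher in 46.1%. The 2 genes with a divergent or intronic symbol were both higher. An implied SE above 0.2 was found for 44.4% of the LOC-named and 40.0% of the antisense genes, against 11.0% of the remaining symbols. The differences between these classes were not tested.

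**Figure D3:**
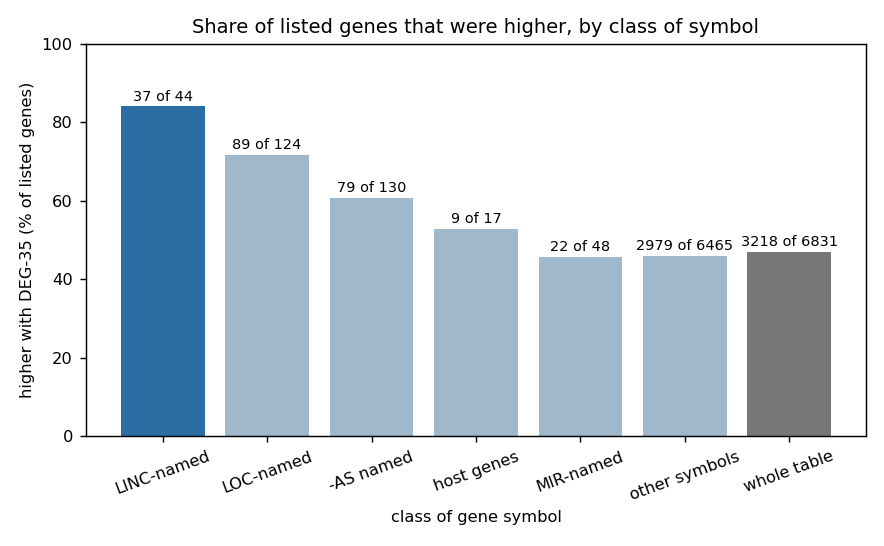
Share of listed genes that were higher with DEG-35, in percent, by class of gene symbol, with the counts above each bar. The LINC-named bar stands at 37 of 44 and the whole table at 47.1%; the class of divergent or intronic symbols, with 2 genes, is not drawn.

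The members with the smallest adjusted p-values went in both directions. LINC01410, an RNA gene of chromosome 9, was 2.12-fold higher, at 1.08 ± 0.109 (adjusted p = 4.79e-22 in the authors' deposited table). LINC00599, now MIR124-1HG, named as host of a neural microRNA, was 1.65-fold lower at -0.72 ± 0.0809 (adjusted p = 5.85e-18 in the authors' deposited table). LINC00996 was 5.91-fold higher at 2.56 ± 0.312 (adjusted p = 2.75e-15 in the authors' deposited table). The direction was thus not shared among these 3 genes, the first 3 of the members by adjusted p.

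The large rises differed in precision. LINC01226, at 2.08 ± 0.295, was 4.24-fold higher and LINC00663, at 2.01 ± 0.3005, was 4.02-fold higher in the authors' deposited table. LINC01260, at 4.31 ± 1.495, and LINC00907, at 4.28 ± 1.51, had larger estimates there, with adjusted p-values of 0.0107 and 0.0120. LINC00202-1, now FAM238C, stood at 1.75 ± 0.646 in the authors' deposited table. The 2 largest estimates of the members thus had the 2 largest errors. LINC00893 at 1.46 ± 0.397, LINC00665 at 1.36 ± 0.443 and LINC01126 at 1.25 ± 0.470 followed in the authors' deposited table. LINC00174, at 1.08 ± 0.162, and LINC01000, at 0.63 ± 0.0873, were smaller rises with small errors in the authors' deposited table.

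The 7 lower members all changed by less than 2-fold. LINC00263, now OLMALINC and named for oligodendrocyte maturation, was 1.97-fold lower at -0.98 ± 0.122 (adjusted p = 9.63e-15 in the authors' deposited table). LINC01128 stood at -0.58 ± 0.149 and LINC00997 at -0.50 ± 0.0846 in the authors' deposited table. LINC00899 at -0.47 ± 0.206, LINC01089 at -0.32 ± 0.130 and LINC00641 at -0.30 ± 0.128 passed the threshold narrowly, with adjusted p-values of 0.0496, 0.0342 and 0.0428 in the authors' deposited table. With LINC00599 these are all the falls, and the implied SE was at most 0.2 in 6 of them.

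All 4 members that RefSeq now lists as protein-coding were higher, as were 32 of the 39 still annotated as long noncoding RNAs (82.1%). LINC01420 is now NBDY, which encodes a microprotein that binds the mRNA decapping complex, and it was 1.53-fold higher at 0.61 ± 0.134 (adjusted p = 2.31e-05 in the authors' deposited table). LINC00493 is now SMIM26, a gene of a small integral membrane protein, and was 1.37-fold higher at 0.45 ± 0.0800 (adjusted p = 8.32e-08 in the authors' deposited table). LINC00854, now CCDC200, stood at 1.22 ± 0.343 and LINC00959, now C10orf143, at 0.83 ± 0.283 in the authors' deposited table. Their median log2 fold change was 0.72, within the range of the 39 that are still noncoding, whose median was 0.87.

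Among the listed members with a reported role, all but LINC00665 changed by less than 2-fold. LINC00657 is NORAD, an abundant cytoplasmic RNA known for its part in genome stability. It was 1.23-fold higher, at 0.29 ± 0.0610 (adjusted p = 7.75e-06 in the authors' deposited table), with the smallest implied SE of all members. Of 38 LINC genes with reported roles 9 were listed, 7 higher and 2 lower, and 29 were not in the table, where 45.3% of all tested genes were listed, 21.4% as higher and 24.0% as lower. Whether those 29 were tested is not known. LINC00847 stood at 0.71 ± 0.149, LINC00963 at 0.37 ± 0.119 and LINC00667 at 0.31 ± 0.0804 in the authors' deposited table, and these and NORAD were each less than 2-fold higher.

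Some members carry small RNAs in their gene body. LINC00925 is MIR9-3HG and contains MIR9-3, a source of miR-9, which is known from neural progenitors. The host RNA was 1.13-fold higher, the smallest change among the members, at 0.18 ± 0.0665 (adjusted p = 0.0202 in the authors' deposited table). The mature sequences of MIR9-3, from RefSeq on GRCh38.p14, are given with the seed, bases 2 to 8, in capitals. They lie on the plus strand at chr15:89368032-89368054 (5p) and chr15:89368071-89368092 (3p).
hsa-miR-9-5p: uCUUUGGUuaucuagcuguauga
hsa-miR-9-3p: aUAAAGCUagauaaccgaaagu
The libraries were made from mRNA, so the host's value says nothing of the mature microRNAs. LINC00888, now SNHG33 and chosen for mention after its value was seen, holds the small nucleolar RNA genes SNORA63D and SNORA63E and was 1.97-fold higher at 0.98 ± 0.223 in the authors' deposited table.

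The nearest coding gene was itself listed for 19 of the 44 members, and for 15 of these 19 it went the same way. Of all tested genes 45.3% were listed. How many of the nearest coding genes were tested is not known, and 3 of them are uncharacterised LOC genes, so the 2 shares have unlike bases. The nearest coding genes of 16 higher members comprised 12 higher and 4 lower genes, and those of 3 lower members were all lower. Of all listed genes 47.1% were higher. None of the nearest coding genes was in the list of 65 p53 targets, of which 48 were listed with 45 higher and 3 lower, or in that of 102 cell cycle genes, of which 101 were listed and lower. Lists this short hold few of all coding genes, so the lack of overlap says little. Both lists were chosen with earlier results of these data known, so their own directions are no independent result. When both flanking coding genes were counted, 45 of 87 were listed and 25 went the same way as the member. The flanking genes that were not the nearest accounted for 26 of these, with 10 in the same direction and 16 in the opposite one. By strand in GENCODE release 29, 12 of the 19 pairs lay on the same strand, and 10 of these 12 went the same way. On opposite strands, all 3 pairs with facing ends (tail to tail) went the same way. So did 1 of 3 pairs with facing starts (head to head), and 1 of 1 pair of unknown strand. The genes of a pair share libraries, and whether reads were assigned by strand or could pass from one gene into the next was not given in the sources used here. These shares were not tested.

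**Figure D4:**
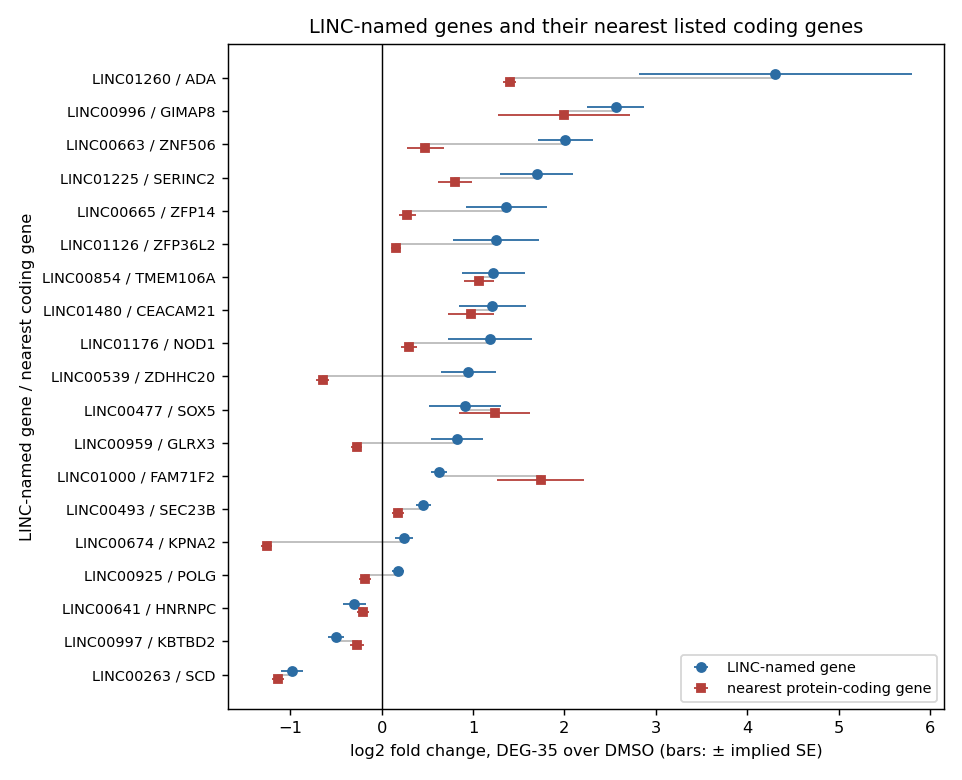
Log2 fold change, DEG-35 over DMSO, with bars of ± the implied SE, for the 19 LINC-named genes (blue circles) whose nearest protein-coding gene (red squares) was also listed. In 15 of the 19 pairs both values lie on the same side of 0.

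The largest fall among the members was accompanied by a fall of the nearest coding gene. LINC00263 stood at -0.98 ± 0.122, beside -1.13 ± 0.0649 for SCD (adjusted p = 3.08e-66 in the authors' deposited table), which encodes stearoyl-CoA desaturase, an enzyme that makes monounsaturated fatty acids. The gene on its other side, WNT8B, a WNT ligand, was higher at 0.87 ± 0.256 in the authors' deposited table. The locus thus held listed genes of both directions, with the fall shared by LINC00263 and SCD.

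LINC00996 lies beside the GIMAP genes, which encode GTPases of immune cells. GIMAP8, its nearest coding gene, was higher at 2.00 ± 0.727 in the authors' deposited table, with an adjusted p of 0.0155. Of the 7 GIMAP genes in RefSeq 3 were listed, where 45.3% of all tested genes were, though how many of the 7 were tested is not known. The 3 were higher, the others being GIMAP6 at 0.72 ± 0.173 and GIMAP2 at 0.68 ± 0.107 in the authors' deposited table. GIMAP2 and GIMAP6 were looked up after the value of LINC00996 had been seen. LOC728743, on the other side of LINC00996, was also higher, at 1.13 ± 0.131 in the authors' deposited table.

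LINC01225 and LINC01226 both lie between SERINC2 and TINAGL1 on chromosome 1. LINC01225, now annotated as the pseudogene LDC1P, was 3.24-fold higher at 1.70 ± 0.398 and LINC01226 was 4.24-fold higher at 2.08 ± 0.295 in the authors' deposited table. SERINC2, a gene of the serine incorporator family, stood at 0.80 ± 0.189 in the authors' deposited table, and TINAGL1 was not listed. All 3 listed genes of this stretch were thus higher.

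Other pairs in the same direction differed in size. LINC01260 at 4.31 ± 1.495 lay next to ADA, which encodes adenosine deaminase and was higher at 1.40 ± 0.0752 (adjusted p = 1.05e-75 in the authors' deposited table). LINC00854 at 1.22 ± 0.343 lay next to TMEM106A at 1.06 ± 0.168 in the authors' deposited table. LINC00663 and LINC00665 each lay beside a zinc-finger gene of chromosome 19, ZNF506 at 0.48 ± 0.202 and ZFP14 at 0.28 ± 0.0967 in the authors' deposited table. In these 4 pairs the LINC-named gene had the larger estimate and the larger error. A gene with a larger error needed a larger estimate to be listed, so these traits are not independent. The reverse order of estimates was seen for LINC01000 at 0.63 ± 0.0873 beside FAM71F2 at 1.74 ± 0.474, and for LINC00477 at 0.91 ± 0.392 beside SOX5, a transcription factor gene, at 1.24 ± 0.386 in the authors' deposited table. LINC01126 lay head to head with ZFP36L2, an mRNA decay factor gene at 0.16 ± 0.0536 in the authors' deposited table. SEC23B, nearest to the higher LINC00493, stood at 0.18 ± 0.0680 in the authors' deposited table. KBTBD2 at -0.27 ± 0.0746 and HNRNPC at -0.21 ± 0.0658 were lower there, nearest to the lower LINC00997 and LINC00641.

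Pairs in opposite directions numbered 4. LINC00674 was higher at 0.25 ± 0.102, whereas KPNA2, which encodes a nuclear import receptor, was lower at -1.26 ± 0.0629 (adjusted p = 3.76e-87 in the authors' deposited table). LINC00925 stood at 0.18 ± 0.0665, beside -0.18 ± 0.0646 in the authors' deposited table for POLG, the gene of the mitochondrial DNA polymerase. LINC00959 stood at 0.83 ± 0.283 and GLRX3, a glutaredoxin gene, at -0.27 ± 0.0617 in the authors' deposited table. The fourth pair was LINC00539 at 0.95 ± 0.299 and ZDHHC20, a palmitoyltransferase gene, at -0.65 ± 0.0688 in the authors' deposited table. Each of these 4 members was higher and each coding neighbour lower.

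Reads of some members may be shared with similar genes. Of 43 members with a GENCODE transcript, 16 had a stretch of at least 200 bases with at least 95% identity to a transcript of another gene, which can be a copy or a gene that overlaps it, and 27 had none. In 7 members such stretches covered at least 50% of the longest transcript. LINC01410 was covered whole by CR786580.1 at 97.9% identity, NORAD to 86.2% with OVCH1-AS1 as the longest match, and LINC01347 whole with 22 genes matched. LINC01260, the largest estimate of the members, was covered to 85.6% by AL139352.1 at 100% identity, and LINC00674 to 50% by SMURF2 at 95.3% identity. LINC00893 and LINC00894, now EOLA1-DT and EOLA2-DT, matched each other over 1035 bases at 97.4% identity. LINC00893 stood at 1.46 ± 0.397 and LINC00894 at 0.69 ± 0.282 in the authors' deposited table. Whether reads were split or shared between them is unknown here, as is how the authors' counting treated such reads. Without the 16 genes, 25 of 28 members were higher, and the median was 0.94 on the log2 scale.

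The naming rule, which takes all 7 falls and the largest rises, left 14 members unnamed, so that these had to be rises of moderate size. They lie between 0.42 and 1.21 on the log2 scale, with adjusted p-values from 4.65e-05 to 0.0485 in the authors' deposited table. Of these LINC00477, LINC00539, LINC00888, LINC00894, LINC01176, LINC01237 and LINC01347, and the flanking genes HDAC2, LOC728743 and WNT8B, with SOX5 and ZDHHC20, were named after their values had been seen. Also among the 14, LINC01268, singled out after its value was seen, is now MROCKI, an RNA reported to regulate its neighbour MARCKS in human macrophages, and stood at 0.91 ± 0.216 in the authors' deposited table. MARCKS was not listed. HDAC2, the coding gene on its other side and a histone deacetylase gene, was lower at -0.39 ± 0.0638 in the authors' deposited table.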

How the data were processed

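RNA from MOLM-13 cells treated with DEG-35 or DMSO was sequenced in 6 libraries, 3 per group, per the labels. The submitters' processing notes name hg19, STAR, featureCounts and DESeq2 without versions or options. The authors deposited 1 table that holds, per the file headers, the log2 fold change of each gene with its unadjusted and adjusted p-value. All adjusted p-values lie below 0.05. For all 2789 genes with a p-value above 1e-04 the ranks fit, within 0.1%, a Benjamini-Hochberg adjustment over 15064 tests. The table holds no counts or levels, so depth is unknown and no new test of a gene was possible.

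The implied SE is the size of the log2 fold change over the normal quantile that its two-sided p-value gives, which assumes a Wald test. Symbols were matched to RefSeq (GRCh38.p14) by current symbol or unique synonym. Both annotations differ in build from hg19, so they served for names, order and strand. The nearest coding gene is the one with the smallest gap in RefSeq. Transcripts of GENCODE release 29 were aligned with BLAST 2.17.0 megablast. Computation used Python 3.11.15 with SciPy 1.17.1, NumPy 2.4.6 and pandas 2.3.3, plots Matplotlib 3.10.9, and the implied SE and number of tests were checked on simulated data.

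The members and lists were chosen with earlier results of these data known. Named genes are the 10 largest rises and falls, the 10 smallest adjusted p-values in each direction, and members now protein-coding or with a reported role. Their nearest coding genes are named where listed. Others are named in the last paragraph of the report or marked where they stand. Alternatives were stricter thresholds, limits on the implied SE, shifted fold changes and members left out.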

Additional observations from a re-analysis of the deposited data

How the results depend on the processing

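Higher genes stayed the majority of the members under each alternative, with a positive median throughout, while their number followed the strictness of the threshold by construction. Each alternative reused the same selected genes, so none is separate evidence on their direction. Of all listed genes, 637 were higher and 614 lower at 2-fold or more, and 43.7% were higher at an implied SE of at most 0.2. For the other settings the share over all listed genes was not worked out. At an adjusted p below 0.01, 26 members passed, 22 higher and 4 lower, and 7 of 9 listed nearest coding genes went the same way. With Bonferroni adjustment over 15064 tests 12 passed, 9 higher and 3 lower, and 1 of 1 nearest gene went the same way. With changes of 2-fold or more alone, 16 passed, 16 higher and 0 lower; the median was 1.41, with 3 of 3 nearest genes in the same direction. With an implied SE of at most 0.2, an alternative added after the data were seen, 20 remained, 14 higher and 6 lower; the median was 0.34, with 4 of 6 nearest genes in the same direction. Without the 16 members similar to another gene, also added later, 28 remained, 25 higher and 3 lower. The median became 0.55 or 1.15 with all listed fold changes shifted down or up by 0.3, and 34 or 38 of 44 members were then higher. Counting both flanking coding genes gave 25 of 45 in the same direction, against 15 of 19. The counts stayed within 1.5 times with an implied SE of at most 0.5, and without the 4 members now coding. No nearest gene of an overlapping member was listed, so leaving out these members changed nothing.

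No paired analysis was possible because the table holds no values per library. For the same reason libraries could not be left out, and other count models, scalings and filters on low counts were not run. The depth is unknown.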
